A study of Mus musculus with 11 samples.

Results

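Proton and bicarbonate transporters move acid and base across cell membranes and so set the pH inside cells. The Slc9 family exchanges sodium for protons, at the cell surface (Slc9a2 and Slc9a5 among others) or on organelles (Slc9a7). The Slc4 family carries bicarbonate, either in exchange for chloride (Slc4a2 and Slc4a3) or together with sodium (Slc4a4, Slc4a7 and Slc4a10). In the carotid body, the arterial organ that senses oxygen, carbon dioxide and acid, such carriers are studied because the pH inside the sensing glomus cells follows that of the blood. The genes described here are a list of 8 names, of which 7 were measured among the 30142 genes of the value table. Each was read from the only row of the table that the array annotation pairs with that gene symbol alone. Slc4a7, a sodium-bicarbonate cotransporter, was not analysed here.

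The arrays hold total RNA from whole tissue of C57B6 mice of both sexes, 2 months old, with no treatment or genetic change named in the labels. There were 3 arrays of carotid body (CB), each from a pool of 10 mice, 4 arrays of adrenal medulla (AM), the catecholamine-secreting core of the adrenal gland, and 4 arrays of superior cervical ganglion (SCG), a sympathetic ganglion. Each medulla or ganglion array holds a pool of 3 mice. The comparison asks how gene expression in the carotid body differs from that in the other tissues. Levels are the deposited log2 expression values, given as mean ± SD (n = 3 for the carotid body and n = 4 for the other tissues). A difference between tissues is a difference of such means, with its standard error (SE) where given. A gene was called when limma's adjusted p was under 0.05 and the difference was at least 1, a 2-fold change on this scale. A level under the background bound (5.38 for the carotid body, 5.35 for the medulla and 5.45 for the ganglion, set from receptor and keratin-associated genes taken as silent) is treated as not detected, and a fold against such a level is given as "at least". In whole tissue, fewer cells of a type and less RNA per cell cannot be told apart.

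The defining genes Pnmt, Epas1 and Nefl matched the tissue labels. Pnmt, the enzyme that makes adrenaline, was at 14.13 ± 0.68 in the medulla and at 5.57 ± 0.11 and 5.18 ± 0.08 in the carotid body and the ganglion, Epas1 (HIF-2alpha) was highest in the carotid body (16.74 ± 0.48) and the neurofilament gene Nefl highest in the ganglion (15.72 ± 0.20). Of the other defining genes, Ndufa4l2 was highest in the carotid body (14.88 ± 0.43) and Htr3a in the ganglion (18.30 ± 0.14). Th was lowest in the carotid body (17.69 ± 0.65, against 19.57 ± 0.09 in the medulla and 19.22 ± 0.10 in the ganglion). Kcnk9 was higher in the medulla (16.57 ± 0.12) than in the carotid body (12.81 ± 0.34). Cyp11b1, a gene of the adrenal cortex list, was at 19.61 ± 0.13 in the medulla. Genes typical of other tissues were thus detected too. The adrenal medulla arrays carried all 10 genes of an adrenal cortex list above the bound, at a mean level of 14.9 to 15.4 per array against 5.30 to 5.73 in the other tissues. Carotid body arrays differed among themselves in a list of sympathetic neuron genes (9 of 10 measured), whose mean level was 12.8, 10.9 and 12.0 on replicates 1, 2 and 3, against 14.8 to 15.1 on the ganglion arrays and 9.32 to 9.80 on the adrenal medulla arrays. Carotid body replicate 3 held Tg, the thyroid hormone precursor thyroglobulin, at 18.56, while the other 10 arrays lay between 4.77 and 5.13. Carotid body replicate 2 had the highest level of all 8 genes of a skeletal muscle list, with a mean of 7.12 against 5.17 to 5.46 on the other arrays. The thyroid and muscle lists were written after these values were seen. Carotid body differences of Slc9a2, Slc9a7 and, against the medulla, Slc4a4 are therefore also given without each replicate below. For some related genes the result without 1 replicate is given.

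**Figure D1:**
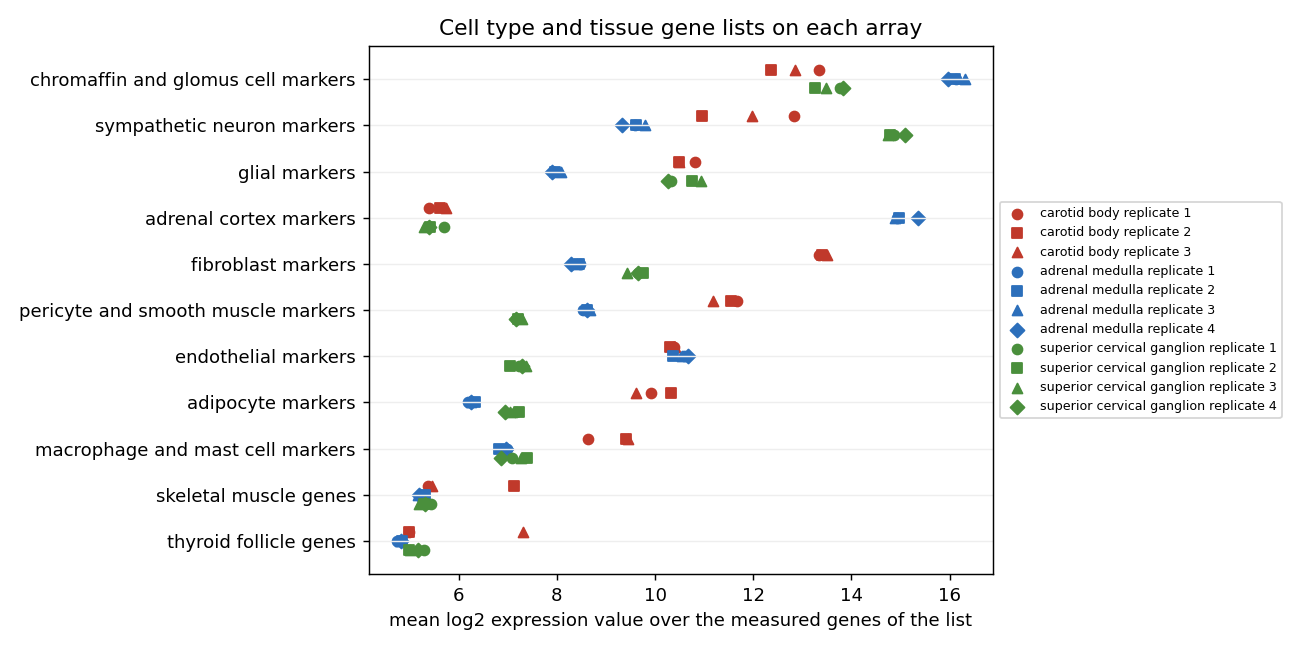
Mean log2 expression value of the measured genes of each list (horizontal axis) on every array (points; colour marks the tissue and shape the replicate). Carotid body replicate 3 stands apart in the thyroid list at 7.31 and replicate 2 in the muscle list at 7.12, while the adrenal cortex list separates the adrenal medulla arrays (14.9 to 15.4) from all others.

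Slc9a2 encodes NHE2, a sodium-proton exchanger of the cell surface best known from epithelia. Its carotid body arrays read 11.34, 10.99 and 10.70. The adrenal medulla arrays read 4.62, 4.72, 4.42 and 4.57, and the ganglion arrays 5.10, 4.67, 4.58 and 5.02. All 3 carotid body arrays lay far above the other 8, every one of which was under its background bound. The level was thus 11.01 ± 0.32 in the carotid body against 4.58 ± 0.13 in the medulla and 4.85 ± 0.25 in the ganglion. The difference from the medulla was 6.43 (SE 0.17, limma adjusted p = 8.65e-10), at least 50.6-fold, and that from the ganglion was 6.16 (SE 0.17, limma adjusted p = 3.08e-09), at least 47.3-fold. The medulla and the ganglion, both not detected, differed by -0.27 (95% interval -0.61 to 0.08, limma adjusted p = 0.213).

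The Slc9a2 difference stayed near its size without any 1 carotid body array. Against the medulla it was 6.26, 6.44 and 6.58 without carotid body replicates 1, 2 and 3, and against the ganglion 5.998, 6.17 and 6.32. Lists of 4 supporting cell types were also higher on every carotid body array than on all others. The endothelial and glial lists overlapped with another tissue. The mean level of 9 fibroblast genes (of 10 listed) was 13.3 to 13.5 on its arrays, against 8.28 to 8.46 in the medulla and 9.43 to 9.75 in the ganglion, and that of 10 pericyte and smooth muscle genes was 11.2 to 11.7 against 8.52 to 8.68 and 7.16 to 7.30. The mean of 9 adipocyte genes (of 10 listed) was 9.60 to 10.3 against 6.19 to 6.34 and 6.94 to 7.22. For 10 macrophage and mast cell genes it was 8.64 to 9.44 against 6.83 to 6.98 and 6.85 to 7.40. The mean of 9 endothelial genes was 10.3 to 10.4 in the carotid body, against 10.4 to 10.7 in the medulla and 7.04 to 7.36 in the ganglion, and the glial list overlapped between the carotid body and the ganglion. The part of these cells in the Slc9a2 result was not tested. The protein-coding genes whose values over the 11 arrays were most like those of Slc9a2, among 4605 searched, were Ccdc80, Aoc3 and Mecom (Pearson's r of 0.9968, 0.9967 and 0.9967). These r values, here and below, describe arrays that share 3 tissues and carry no test.

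Slc9a5 encodes NHE5, an exchanger found mainly in brain neurons. It read 5.64, 5.52, 5.56 and 5.65 on the ganglion arrays, just above the bound. The adrenal medulla arrays read 4.97, 5.05, 4.94 and 4.89, under the bound. All 3 carotid body arrays hold 1 identical value, 5.18, also under the bound. The arrays of the tissues did not overlap and the ganglion was the highest. The ganglion level of 5.59 ± 0.06 was at least 1.19-fold that of the medulla (limma adjusted p = 1.12e-05) and at least 1.16-fold that of the carotid body (limma adjusted p = 0.000520), with measured differences of 0.63 and 0.41 that stayed under the 2-fold limit. The carotid body minus the medulla was 0.22 (limma adjusted p = 0.0306), with both tissues not detected, and its adjusted p reached 0.844 among the alternatives. Repeated values like that of the carotid body make a spread look smaller than it is. In 55.5% of the genes tested some arrays, of the same or of different tissues, shared a value. How often all arrays of a tissue did so was not counted. Pank3, Bmp3 and Nrxn3 had the most similar values to Slc9a5 (r of 0.9972, 0.9960 and 0.9943).

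Slc9a7 encodes NHE7, an exchanger of the trans-Golgi network. It read 11.64, 11.93, 11.95 and 12.17 on the adrenal medulla arrays. The ganglion arrays read 11.04, 10.27, 10.59 and 11.08. The carotid body arrays read 9.04, 7.90 and 7.87, the lowest of all, and none of the tissues overlapped. The level fell from the medulla (11.92 ± 0.22) through the ganglion (10.75 ± 0.39) to the carotid body (8.27 ± 0.66), and each step passed the test. The carotid body was 12.6-fold lower than the medulla (difference -3.65, SE 0.29, limma adjusted p = 4.24e-06) and 5.56-fold lower than the ganglion (difference -2.48, limma adjusted p = 6.17e-05). The medulla was 2.26-fold higher than the ganglion (difference 1.18, limma adjusted p = 0.00547).

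Within the carotid body, Slc9a7 was highest on replicate 1. That replicate also had the highest mean of the sympathetic neuron (12.8), chromaffin and glomus (13.3), glial (10.8) and pericyte and smooth muscle (11.7) lists. Between replicates 2 and 3 the neuron list rose from 10.9 to 12.0, while Slc9a7 read 7.90 and 7.87. Whether any of these are linked was not tested. Without replicate 1 the Slc9a7 difference from the medulla was -4.04 and from the ganglion -2.86. Without replicates 2 and 3 they were -3.47 and -3.45 from the medulla, and -2.29 and -2.28 from the ganglion. With a covariate for the array's control features the differences shrank to -2.85 and -1.76, still called. That covariate, positive minus negative control signal, was 3.91 to 4.43 on the carotid body arrays and 4.54 to 5.24 on all others. It thus separates the carotid body from the other tissues. Here and below, its effect on a carotid body difference cannot be told apart from that of tissue. Cntnap5a, Necab1 and Syt14 had the values most like those of Slc9a7 (r of 0.9936, 0.9930 and 0.9922).

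**Figure D2:**
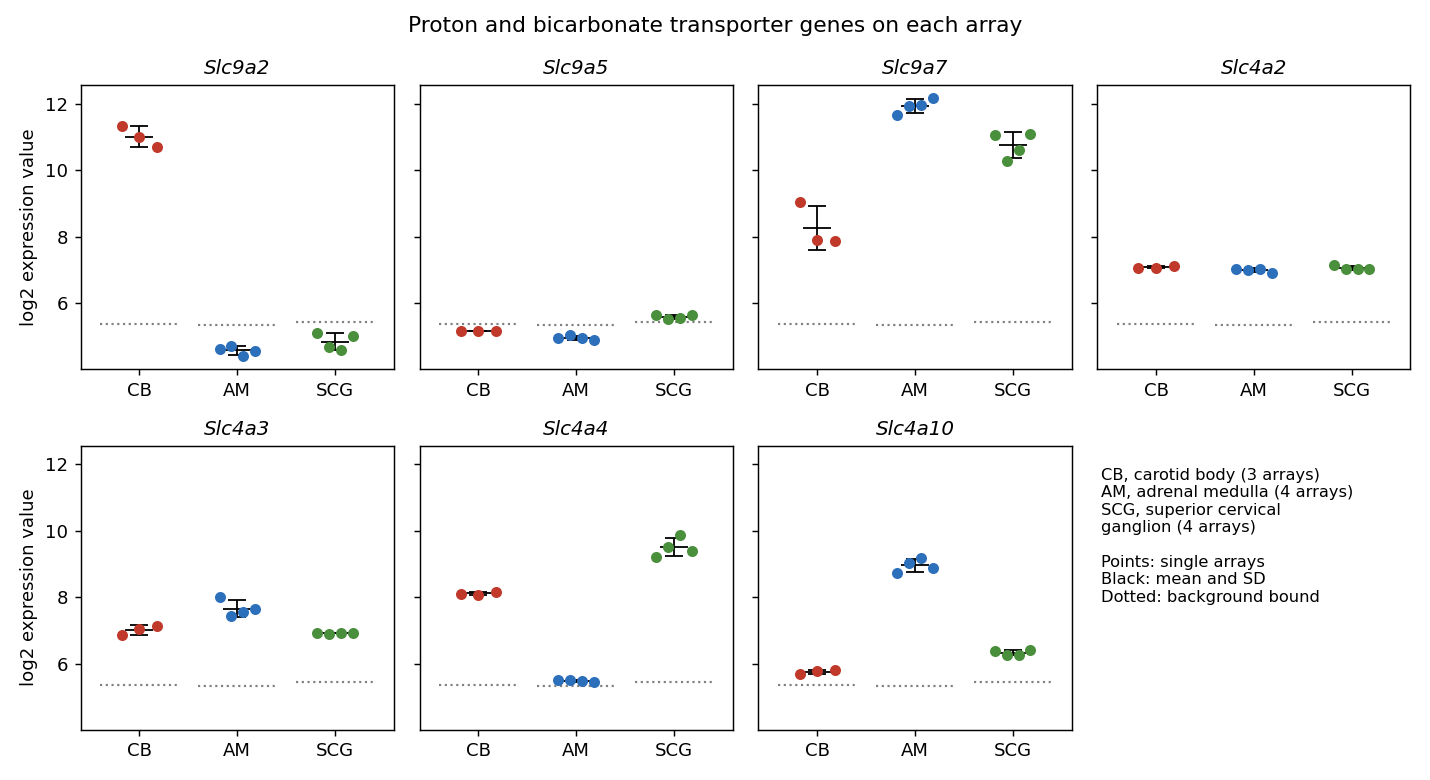
Log2 expression value (vertical axis) of the 7 measured genes on each array of carotid body (CB), adrenal medulla (AM) and superior cervical ganglion (SCG), with mean and SD in black and each tissue's background bound dotted. Slc9a2 is above the bound in the carotid body alone, Slc4a10 and Slc9a7 are highest in the medulla and Slc4a4 in the ganglion.

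Slc4a2 encodes AE2, a chloride-bicarbonate exchanger present in most cell types. Its 11 values spanned only 6.92 to 7.15. The carotid body arrays read 7.06, 7.07 and 7.12, the adrenal medulla arrays 7.03, 6.997, 7.03 and 6.92, and the ganglion arrays 7.15, 7.03, 7.03 and 7.03. The ganglion overlapped with both other tissues, and 4 arrays held 1 identical value. No difference passed the test, and each was small. The carotid body minus the medulla was 0.09 (95% interval -0.05 to 0.23, limma adjusted p = 0.334), carotid body minus ganglion 0.03 (-0.11 to 0.17, adjusted p = 0.793) and the medulla minus the ganglion -0.06 (-0.19 to 0.07, adjusted p = 0.437). The intervals thus lie within the 2-fold limit, while the sign of each difference turned under median centring and under repeated quantile normalization. The genes most like Slc4a2 were Gpr141b, Layn and Tnfsf13b, at lower r than for the other transporters (0.7893, 0.7684 and 0.7653).

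Slc4a3 encodes AE3, the chloride-bicarbonate exchanger of heart and other excitable tissue. It read 8.01, 7.44, 7.56 and 7.65 on the adrenal medulla arrays, above the other 7 arrays. The carotid body arrays read 6.86, 7.04 and 7.15, and the ganglion arrays 6.94, 6.91, 6.94 and 6.94. The carotid body and the ganglion overlapped. The carotid body (7.01 ± 0.14) was lower than the medulla (7.66 ± 0.25) by 0.65 (SE 0.12, limma adjusted p = 0.00228), and the medulla was higher than the ganglion (6.93 ± 0.01) by 0.73 (SE 0.12, limma adjusted p = 0.000437). Both differences passed on p and stayed under the 2-fold limit, so the gene was called in no comparison. The carotid body minus the ganglion was 0.08 (95% interval -0.19 to 0.36, limma adjusted p = 0.664), and turned to -0.0032 with the control covariate. Hhex, Clcn2 and Acaa2 were most like Slc4a3 (r of 0.9827, 0.9803 and 0.9758).

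Slc4a4 encodes NBCe1, the electrogenic sodium-bicarbonate cotransporter known from kidney tubule, pancreas and glia. Its ganglion arrays read 9.23, 9.51, 9.87 and 9.40. The carotid body arrays read 8.12, 8.09 and 8.17, and the adrenal medulla arrays 5.52, 5.52, 5.50 and 5.45, barely above the bound. The tissues were fully separate, in the order ganglion (9.50 ± 0.27), carotid body (8.12 ± 0.04) and the medulla (5.50 ± 0.04). The carotid body was 6.18-fold higher than the medulla (difference 2.63, SE 0.13, limma adjusted p = 1.06e-07) and 2.6-fold lower than the ganglion (difference -1.38, SE 0.13, limma adjusted p = 1.11e-05). The medulla was 16.1-fold lower than the ganglion (difference -4.01, SE 0.12, limma adjusted p = 1.92e-09). Leaving out carotid body replicates 1, 2 or 3 gave differences from the medulla of 2.63, 2.65 and 2.604.

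A list of glial genes (8 of 10 measured) was also low in the medulla, at a mean level of 7.89 to 8.09 against 10.5 to 10.8 in the carotid body and 10.3 to 10.9 in the ganglion. Glial levels overlapped between the carotid body and the ganglion, where Slc4a4 did not. The sympathetic neuron list separated the tissues in the order of Slc4a4. It was at 9.32 to 9.80 in the medulla, 10.9 to 12.8 in the carotid body and 14.8 to 15.1 in the ganglion. Within the tissues the order differed. On ganglion replicates 1 to 4 Slc4a4 read 9.23, 9.51, 9.87 and 9.40. The glial list there averaged 10.32, 10.74, 10.94 and 10.26, and the neuron list 14.88, 14.78, 14.75 and 15.10. On carotid body replicates 1, 2 and 3 Slc4a4 read 8.12, 8.09 and 8.17. The glial list there averaged 10.80, 10.48 and 10.49, and the neuron list 12.8, 10.9 and 12.0. The part of glial cells or of neurons in the Slc4a4 result was not tested. Luzp2, Ndnf and Pea15a were most like Slc4a4 (r of 0.9973, 0.9969 and 0.9950).

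Slc4a10 encodes NBCn2, a sodium-dependent bicarbonate carrier of neurons and choroid plexus. Its adrenal medulla arrays read 8.74, 9.04, 9.19 and 8.88. The ganglion arrays read 6.39, 6.27, 6.27 and 6.41, and the carotid body arrays 5.70, 5.79 and 5.81. No tissues overlapped, and the medulla stood well above both. The carotid body (5.77 ± 0.06) was 9.18-fold lower than the medulla (8.96 ± 0.19; difference -3.20, SE 0.10, limma adjusted p = 4.33e-09). The medulla was 6.19-fold higher than the ganglion (6.33 ± 0.08; difference 2.63, SE 0.09, limma adjusted p = 6.60e-09). The carotid body lay under the ganglion by 0.57 (SE 0.10, limma adjusted p = 0.00122), less than the 2-fold limit. With the control covariate it was -0.48 (limma adjusted p = 0.0637), the highest p among the alternatives. Dbpht2, Olfm3 and Lgr5 had the values most like those of Slc4a10 (r of 0.9973, 0.9949 and 0.9944).

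Slc4a10 and Slc9a7 were both highest in the medulla and lowest in the carotid body, and Slc4a3 was highest in the medulla too. On the same arrays the list of chromaffin and glomus cell genes (9 of 10 measured) averaged 15.96 to 16.3, against 12.4 to 13.3 in the carotid body and 13.3 to 13.8 in the ganglion, and the adrenal cortex list was high as given above. Which cells of those samples held the transporter transcripts was not tested.

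The sequence before the start of Slc4a10 is shown because this gene had the lowest p of those among the 7 listed genes that were highest in the medulla. It lies before the first annotated start of the gene at chr2:62046265-62046471 (GRCm38.p6, plus strand, RefSeq) and ends where the gene model begins, outside exons and introns of Slc4a10. It is written 5′ to 3′ in lower case with no capitals, since none of the motifs searched occurs in it.
Slc4a10: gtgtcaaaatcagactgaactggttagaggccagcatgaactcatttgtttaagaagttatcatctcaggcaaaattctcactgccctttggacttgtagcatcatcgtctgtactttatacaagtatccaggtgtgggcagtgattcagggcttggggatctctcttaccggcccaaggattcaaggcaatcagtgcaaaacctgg
The motifs, searched on both strands, were the hypoxia response cores ACGTG and GCGTG, the GC box GGGCGG, the cyclic AMP response element core TGACGT and the SF-1 motif AAGGTCA. Among all 32851 windows of the 250 bases before a start in the table, 16.6%, 28.2%, 32.7%, 6.47% and 4.08% hold them in that order. RefSeq windows matched 7 of the 8 listed genes by symbol, all but Slc9a2. The window of Slc9a7 held GGGCGG at 3 places and GCGTG at 1, and that of Slc4a3 held each at 2 places. Both windows of Slc4a10 (GC content of 47.6% and 42.8%) held none of them, while those of Slc9a7 and Slc4a3 had GC contents of 69.6% and 70.0%. A match or its absence is a description of these letters only.

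Counted together, 4 of the 7 genes were called between the carotid body and the medulla, where 11% of all genes were called. Slc9a2 and Slc4a4 were higher and Slc9a7 and Slc4a10 lower in the carotid body. Between the carotid body and the ganglion 3 of 7 were called, against 13.9% of all genes, with Slc9a2 higher and Slc9a7 and Slc4a4 lower. Between the medulla and the ganglion 3 of 7 were called, against 13.2% of all genes, with Slc9a7 and Slc4a10 higher and Slc4a4 lower. The shares exceed those of all genes, but the genes were listed with earlier results of these data known. The median difference of the 7 genes was 0.09, -0.41 and -0.06 in the 3 comparisons, beside 0.05, -0.02 and -0.08 over all genes. These comparisons share arrays and are not independent. Over all genes, 1828 were called higher and 1492 lower in the carotid body than in the medulla, and 1577 and 1966 with the arrays centred on their medians, which moved the median of all genes from 0.05 to -0.10.

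**Figure D3:**
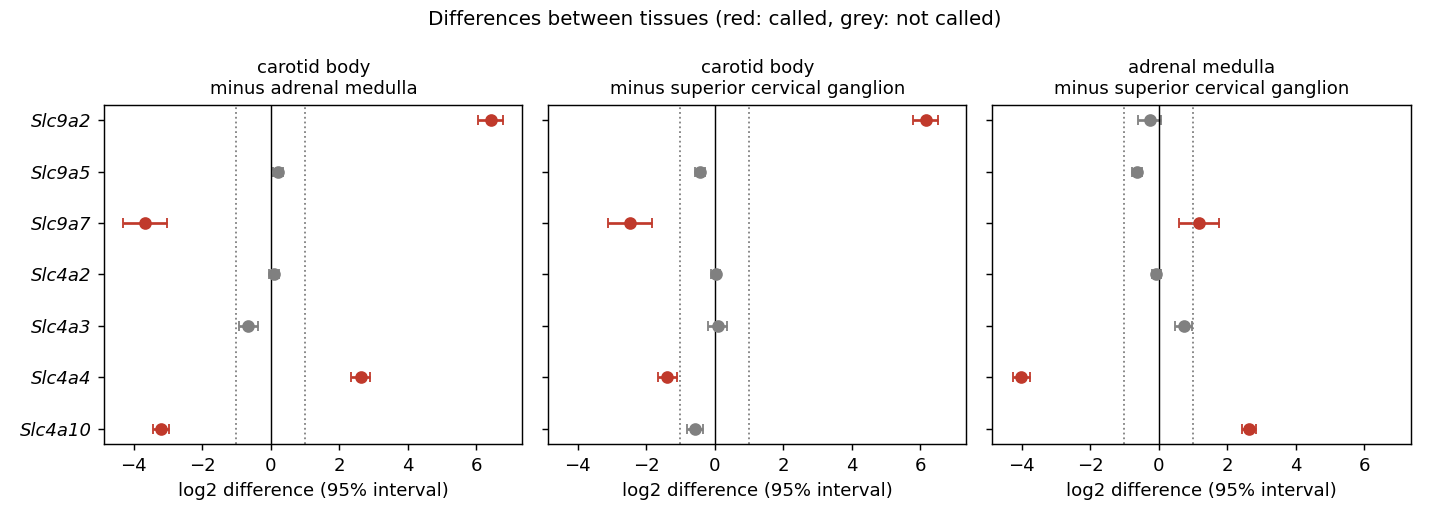
Log2 difference between tissues (points) with its 95% interval from limma (bars) for the 7 genes, one panel per comparison; red marks a called difference and dotted lines the 2-fold limit. Slc9a2 lies beyond 6 in both panels that involve carotid body, and the intervals of Slc4a2 lie close to 0 in all 3.

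Other sodium-proton exchangers were mostly not detected. Of 7 measured genes (9 listed), 3 had a tissue mean above the bound, namely Slc9a8, Slc9a9 and Slc9b2. Slc9a8, an exchanger of the Golgi, was lower in the carotid body than in the medulla by 1.24 (9.56 ± 0.17 against 10.81 ± 0.04, limma adjusted p = 5.65e-06), as Slc9a7 was. Slc9b2, the sodium-proton antiporter NHA2, was 10.17 ± 0.10 in the ganglion and 14.2-fold lower in the carotid body (6.34 ± 0.55, difference -3.83). Its medulla mean (5.30 ± 0.11) was under the bound, so the carotid body was at least 1.97-fold higher there. The measured difference of 1.04 was called by a narrow margin and was 0.74 without carotid body replicate 1, no longer called. In the comparisons of the carotid body with the medulla, carotid body with the ganglion, and the medulla with the ganglion, 1, 0 and 0 of these 7 were higher and 1, 1 and 1 lower, beside 11%, 13.9% and 13.2% of all genes called either way. The medians were 0.14, -0.34 and -0.12. At an unadjusted limma p under 0.05, 0 of them were higher in the carotid body than in the ganglion and 1, Slc9a8, was higher in the medulla than in the ganglion.

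Of 15 other bicarbonate and anion carriers, 7 had a tissue mean above the bound. In the 3 comparisons, in the same order, 1, 2 and 1 were higher and 1, 1 and 1 lower, with medians of 0.03, 0.01 and -0.02. Of all genes, 11%, 13.9% and 13.2% were called either way, and the 2 called carriers of 15 in the first comparison are near that share. Slc26a4, pendrin, which exchanges chloride for iodide or bicarbonate, was highest in the medulla. It was 10.49 ± 0.15 in the medulla, 7.28 ± 0.05 in the carotid body and 5.46 ± 0.20 in the ganglion, 9.25-fold lower in the carotid body than in the medulla (limma adjusted p = 1.23e-08) and at least 3.36-fold higher than in the ganglion. Slc4a8, a sodium-driven chloride-bicarbonate exchanger of neurons, was highest in the ganglion like Slc4a4 (9.20 ± 0.42), with the carotid body (7.27 ± 0.47) lower by 1.94 and the medulla (7.57 ± 0.12) lower by 1.63. Slc26a10 was at 6.41 ± 0.70 in the carotid body, with 7.18 on replicate 3, and under the bound on every medulla and ganglion array. The carotid body was thus at least 2.09-fold higher than the medulla and at least 1.95-fold higher than the ganglion. Without that replicate the measured difference from the ganglion was 0.85 in place of 1.24, no longer called, and with the control covariate neither difference of the carotid body from another tissue passed (adjusted p of 0.0547 and 0.0845 in limma).

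The vacuolar proton pump acidifies granules and lysosomes. Of its 24 measured subunit and accessory genes (25 listed), 7 were lower and 0 higher in the carotid body than in the medulla, 12 lower and 1 higher than in the ganglion, and in the medulla 9 were lower and 3 higher than in the ganglion, beside 11%, 13.9% and 13.2% of all genes called either way. Median differences were -0.69, -0.96 and -0.28, beside 0.05, -0.02 and -0.08 over all genes. Cell type lists moved too. Chromaffin and glomus cell genes averaged 12.4 to 13.3 in the carotid body against 15.96 to 16.3 in the medulla, neuron genes 10.9 to 12.8 against 14.8 to 15.1 in the ganglion, and fibroblast genes were higher in the carotid body (13.3 to 13.5) than in both. Their part in the change of the pump genes was not tested. At an unadjusted limma p under 0.05, 1 gene was higher in the carotid body than in the medulla, Atp6v1g2, by 0.72, less than the 2-fold limit. Atp6v0e2, a subunit of the membrane part, was lower in the carotid body (11.15 ± 0.51) than in the medulla (13.02 ± 0.16) by 1.87 and than in the ganglion (14.19 ± 0.18) by 3.04. Atp6v1h and Atp6v1b2, subunits of the part that splits ATP, were lower than in the medulla by 1.78 and 1.75. Atp6v0e, the paralogue of Atp6v0e2, was the 1 subunit called higher in the carotid body than in the ganglion. It lay above the ganglion by 1.46 in the carotid body (10.62 ± 0.45) and by 2.53 in the medulla (11.70 ± 0.24). Tcirg1 was higher in the carotid body than in the ganglion by 0.42 (limma adjusted p = 0.0129), less than the 2-fold limit.

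**Figure D4:**
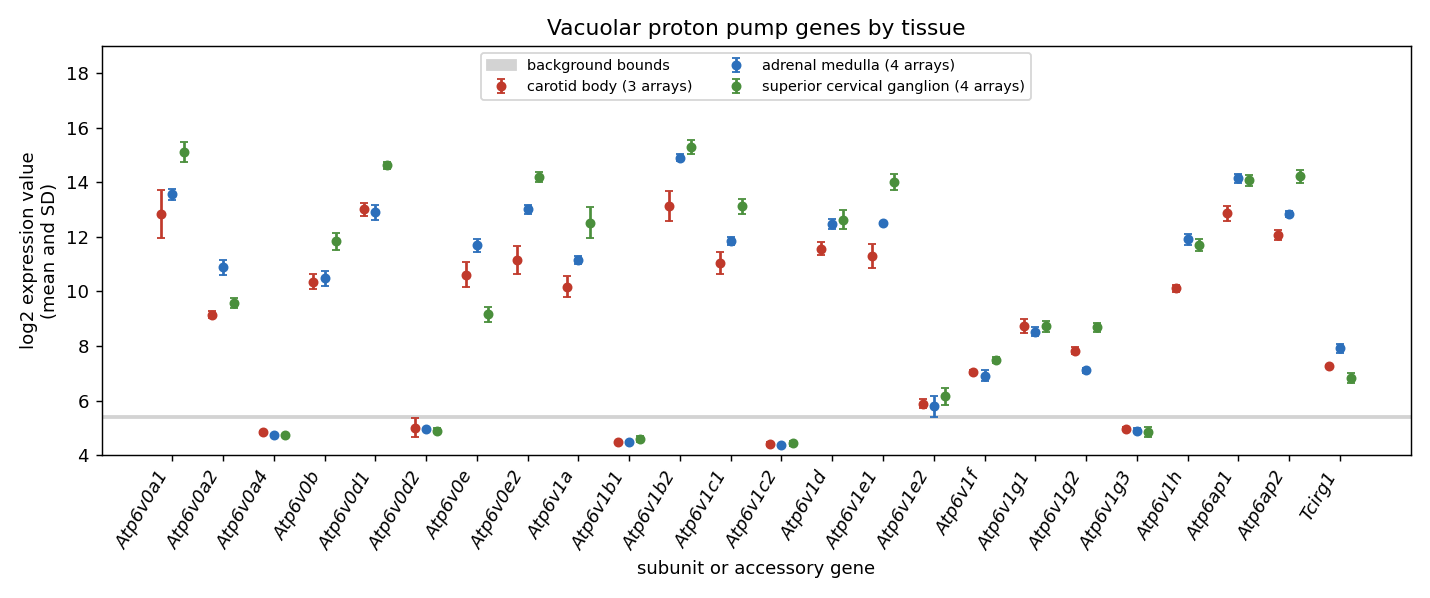
Mean and SD of the log2 expression value (vertical axis) of each measured vacuolar proton pump gene in the carotid body (3 arrays), adrenal medulla and the ganglion (4 arrays each), with the range of the background bounds in grey. Atp6v0e2 and Atp6v1b2 are lowest in the carotid body, and Atp6v0e is lowest in the ganglion.

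Of 11 other proton carriers 4 were above the bound in some tissue. In the same order of comparisons 2, 1 and 0 were higher and 0, 1 and 2 lower, beside 11%, 13.9% and 13.2% of all genes called either way, with medians of 0.15, -0.01 and -0.12. At an unadjusted limma p under 0.05, both counts of 0 stayed at 0. Slc16a1, which carries lactate with protons, followed the order of Slc4a4, at 10.76 ± 0.35 in the ganglion, 9.49 ± 0.34 in the carotid body and 7.69 ± 0.17 in the medulla. With the control covariate its difference between the carotid body and the ganglion was -0.94 in place of -1.27, no longer called. Otop1, a proton channel of sour taste, was above the bound on the carotid body arrays alone (5.64, 6.39 and 5.56). It was at least 1.43-fold higher there than in the medulla and at least 1.34-fold higher than in the ganglion, both bounds under the 2-fold limit. The calls rest on differences measured against levels under the bound, and the one against the ganglion was lost without carotid body replicate 2 and with the control covariate.

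Among 16 measured regulators and partners (18 listed), 1, 1 and 3 were higher and 1, 4 and 5 lower in the 3 comparisons, beside 11%, 13.9% and 13.2% of all genes called either way, with medians of -0.06, -0.15 and -0.20. Chp2, a calcium-binding cofactor of sodium-proton exchangers, was higher in the carotid body (6.83 ± 0.20) than in the medulla (5.12 ± 0.12, not detected), at least 2.79-fold. Scamp5, a secretory carrier membrane protein of synaptic vesicles, was 13.56 ± 0.24 in the ganglion, where Slc9a5 was highest too, and lower by 2.59 in the carotid body and by 3.42 in the medulla. Ahcyl1, which encodes the NBCe1 activator IRBIT, was lower in the carotid body (12.41 ± 0.01) than in the medulla (13.43 ± 0.03) by 1.02, the reverse of Slc4a4. With the control covariate that difference was -0.92, no longer called. Slc9a3r1, a scaffold of exchangers, was 9.87 ± 0.29 in the ganglion and lower by 2.02 in the carotid body and by 2.89 in the medulla.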

How the data were processed

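Total RNA from 11 pooled tissue samples was measured on the Affymetrix mouse transcriptome 1.0 array. The submitters' processing notes name RMA and Affymetrix Expression Console for the log2 values that the authors deposited, and the versions are not given in the sources used here. The highest value per array is 19.65 to 19.93, above the 16 that a 16-bit scan gives on the log2 scale, so a further scaling of unknown form is possible and folds hold on the deposited scale. Of 65956 transcript clusters, 30604 carried a single symbol and were used, while 2146 with several symbols and 33206 unnamed ones were not. The row with the highest mean was kept for each gene, giving 30142 genes, and 819 symbols were updated through RefSeq. limma 3.58.1 in R 4.3.3 fitted tissue over 11 arrays, with Benjamini-Hochberg adjustment over all genes. Nothing shows that pools of a tissue shared no batch, and p-values measure the spread between pools. The number of arrays limits the precision. For the background bound, 349 Vmn1r, Vmn2r and Krtap genes were averaged per tissue and the 95th percentile taken. The fit was tested on simulated data. Named are the listed genes, up to 3 called genes per related list, direction and comparison with tissues that do not overlap, the 3 most similar genes to each, and tissue-defining genes. Likeness was searched among protein-coding genes whose tissue means span at least 1 and exceed the bound. Tg and the genes of the thyroid and muscle lists, Slc9a9 and Atp6v1g2 were named after their values were seen. The genes and lists were chosen with earlier results of these data known. Alternatives were median centring, repeated quantile normalization, all features, protein-coding genes, array weights, removal of dim genes, the mean of a gene's rows, only the arrays of both tissues compared, an intensity trend with robust estimation, a replicate block, leaving out each array and, chosen after seeing the data, a covariate from the control features.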

Additional observations from a re-analysis of the deposited data

Results flagged for a closer look

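In the ganglion, 1 array stood apart from the other 3 in Slc4a2. Replicate 1 read 7.1453, and its gap to the nearest array was 0.992 of the range of the group, above Dixon's 95% critical value for 4 samples. The other 3 arrays read 7.03. In Slc4a3, ganglion replicate 2 read 6.9146, with a gap of 0.971 of the range, while the other 3 arrays read 6.94. Both ranges are narrow. Of 14 groups of 4 arrays examined 2 were marked in this way, where chance marks about 1 in 20.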

How the results depend on the processing

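Calls of other transporters (Slc9b2, Slc26a10, Otop1 and Slc16a1) were lost in some alternatives. So were calls of several pump genes and regulators. Among the pump genes were Atp6v0e and Atp6v1e1 between the carotid body and the medulla, and Atp6v0e2 and Tcirg1 between the medulla and the ganglion. For the 7 listed genes, every call kept its direction and side of the threshold in all alternatives run. Uncalled differences that changed sign were those of Slc4a2 under median centring (-0.0609 for carotid body minus adrenal medulla, -0.0378 for carotid body minus ganglion, 0.0232 for the medulla minus the ganglion) and under repeated quantile normalization (-0.0445, -0.0442 and 0.000273), and that of Slc4a3 for carotid body minus ganglion with the control covariate (-0.00318). For these and the counts below the cause was not tested, except that more or fewer features enter the tests of all features and of protein-coding genes. Genes called higher in the carotid body than in the medulla numbered 1828, or 3236 over all features and 1002 among protein-coding genes. Against ganglion they numbered 1691, or 2885, 1015 and, with the control covariate, 1079. Genes lower in the medulla than in the ganglion numbered 2262, or 3572 over all features. Leaving out 1 array gave 1748 to 2057, 1440 to 2104 and 2217 to 2358 for these counts. Between the carotid body and the medulla, exchangers called higher went from 1 to 0 under median centring, repeated quantile normalization and array weights (0 to 1 without 1 array, 0 without carotid body replicate 1 or adrenal medulla replicate 1), and bicarbonate carriers called higher from 1 to 2 with array weights and 0 with the control covariate. Regulators called higher went from 1 to 2 with that covariate (1 to 3 without 1 array, 3 without carotid body replicate 2), and those called lower from 1 to 3 under median centring and repeated quantile normalization and 0 with that covariate (1 to 2 without 1 array). Between the carotid body and the ganglion, the covariate took bicarbonate carriers called higher from 2 to 1 (1 to 2 without 1 array, 1 without carotid body replicate 3) and other proton carriers called higher from 1 to 0 (0 to 1 without 1 array, 0 without carotid body replicate 2) and lower from 1 to 0. Regulators called higher were 0 to 1 without 1 array, and 0 without carotid body replicate 1.

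Between the deviations of same-numbered arrays of different tissues, r was -0.22 to 0.35, over 0.1 in 3 of 10 pairs. Arrays with different numbers had r of -0.43 to 0.43. Whether same-numbered samples share mice or a batch was not tested, since these r values cannot show it. With the replicate block, 1795 genes were higher and 1507 lower in the carotid body than in the medulla, 1619 and 2496 than in the ganglion, and no call of the 7 listed genes changed. Low signal limits Slc9a5, under the bound in 2 tissues, and Slc9a2 outside carotid body.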

Other observations

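Several anion carriers were high on a single carotid body array. Slc26a7, an anion exchanger, read 4.44, 4.44 and 7.93 on carotid body replicates 1, 2 and 3. Slc4a5, an electrogenic sodium-bicarbonate cotransporter, read 5.15, 5.18 and 6.54. Neither was called in a comparison with carotid body. Replicate 3 is also the array with Tg at 18.56, and 7 of 9 measured thyroid follicle genes (10 listed) were highest on it. Both genes were named after their values were seen, and whether these values are linked was not tested.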
